A study of Mus musculus with 4 samples.

Results

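The comparison described here asks which transcripts differ between CD30high and CD30low cells in one T helper lineage but not to the same degree in the other. For each gene, the log2 ratio of the CD30high over the CD30low signal was taken within either lineage, and the Th1 ratio was subtracted from the Th17 ratio. Signals below 100 were set to 100 first. Members were the autosomal genes with a signal of at least 300 on at least 1 array of each lineage, 7137 of 18193 genes on the array. The result is called the lineage difference below: a value of 1 means that the CD30high over CD30low ratio was 2-fold higher in Th17 than in Th1 cells, and a value of -1 that it was 2-fold lower.

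Effector cells were raised for 6 days from splenic CD4 T cells of the mouse and then sorted by the surface level of CD30. The CD30low and CD30high fractions of each lineage made 4 groups, and each was measured on 1 array. Th1 cultures contained IL-2 culture supernatant, IL-12 and anti-IL-4 antibody. Th17 cultures contained IL-6, IL-1β and IL-23 with antibodies against IL-4 and IFN-γ. By the methods, all T cells carried a transgenic receptor for ovalbumin (DO11.10 or OTII) and met its peptide on irradiated splenocytes without T cells. The labels name neither strain nor age for any array. They call the starting cells CD44low throughout, but CD62Llow for both CD30low groups and CD62Lhi for both CD30high groups, where the methods give CD62Lhigh for all. Whether each ratio also compares different starting cells cannot be told apart from the sort.

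CD30 is a receptor of the TNF receptor superfamily that appears on activated lymphocytes and signals through TRAF adaptors to NF-κB. Th1 cells develop under IL-12 and T-bet and make IFN-γ, which acts against intracellular microbes. Th17 cells develop under IL-6, IL-1 and IL-23 through STAT3, and make IL-17 at barriers. A transcript with the same CD30-linked ratio in both lineages has a lineage difference of 0.

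The lineage labels were met by the defining genes. Signals are given below with the CD30low array first and the CD30high array second in each lineage. Tbx21, the gene of T-bet, had 2189.8 and 2352 in Th1 and 281 and 243 in Th17 cells, and Ifng had 2506 and 3423 in Th1 and 106 and 76.0 in Th17 cells. Il17a was at 37.7 and 49.4 in Th1 and at 1398 and 14443 in Th17 cells. Neither Tbx21 and Ifng, too dim in Th17 cells, nor Il17a, too dim in Th1 cells, was a member. Rora, which encodes a nuclear receptor, did not separate the lineages among CD30low cells, with 963 in Th1 and 951 in Th17 cells. Tnfrsf8, which encodes CD30, was below 300 on every array and no member either, with 13.3 and 51.1 in Th1 and 34.9 and 132 in Th17 cells. The Th1 and Th17 material also differed in sex-linked transcripts, with Eif2s3y of the Y chromosome at 1784 and 1640.0 in Th1 and at 1.41 and 9.39 in Th17 cells. Xist of the X chromosome was bright on every array, with 14620 and 16222.5 in Th1 and 22350 and 22613 in Th17 cells. The Th1 material thus held both transcripts, and the sex of the mice was not tested. Sex-linked genes were therefore left out. The trimmed mean of the signals was about the same on each array, between 496.6 and 497.0.

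With 1 array in each group, the lineage difference uses up all 4 values of a gene. No spread between replicates remained, and no test could be made. A difference of 2-fold or more, that is a lineage difference of at least 1 in size, was used as a fold rule in its place, and the counts below describe these 4 arrays. The technical precision was read from genes with a second probe set that met the same limits. Over 2714 such genes the SD per probe set was 0.29 for the lineage difference, against 0.22 for the Th1 and 0.19 for the Th17 ratio. This SD holds no difference between cultures, sorts or mice.

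Of the 7137 genes, 347 (4.86%) had a lineage difference of 2-fold or more. The ratio was higher in Th17 than in Th1 cells for 145 of them (2.03%) and lower for 202 (2.83%). At 4-fold or more, 10 genes (0.14%) were higher and 25 (0.35%) lower. The median over all members was 0.02 and the SD 0.50. The SD of the ratios themselves was 0.32 for Th1 and 0.54 for Th17 cells. Among the same members, 48 genes (0.673%) were at least 2-fold higher and 25 (0.35%) at least 2-fold lower in CD30high Th1 cells, where it was 187 (2.62%) and 224 (3.14%) in CD30high Th17 cells. For 1 higher gene, Cd93, and 12 lower genes a signal below 100 made the size a lower bound. The rule cut through a continuous range: Rgs2 and Tgif1 lay just inside at 1.00 and 1.01, and Mrpl37 just outside at 0.998. On the other side Sptbn1 and Cd84 were just inside at -1.002 and -1.003, with Osbpl3 just outside at -0.999.

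**Figure D1:**
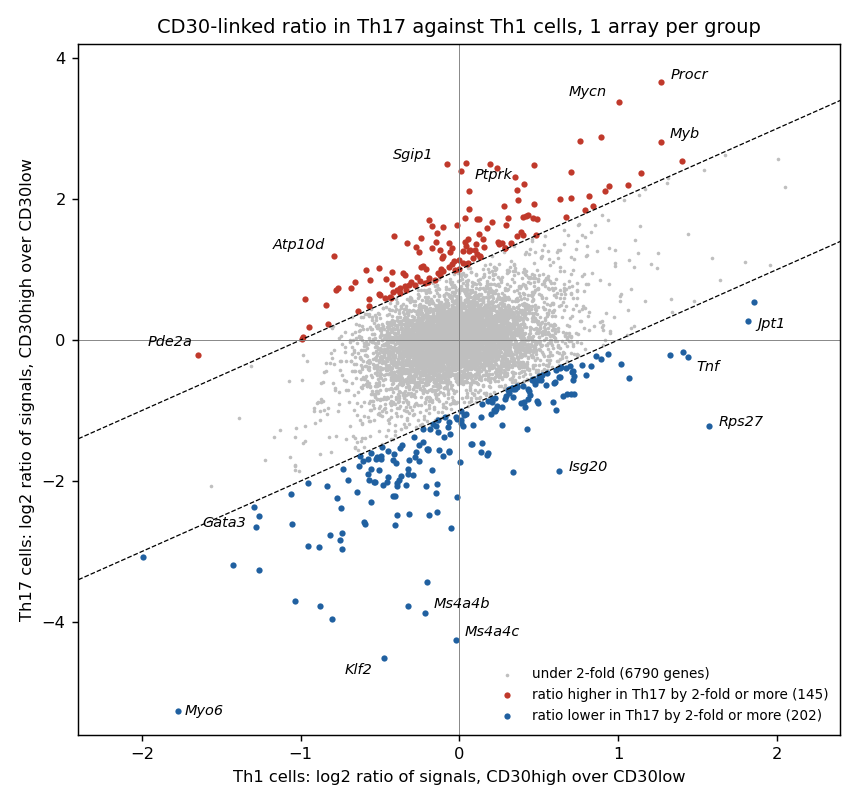
Log2 ratio of signals, CD30high over CD30low, in Th1 cells (x axis) and Th17 cells (y axis) for the 7137 genes, 1 array per group. Each point is a gene, and the dashed lines mark a 2-fold lineage difference, with 145 genes above the upper line (red) and 202 below the lower line (blue). Most blue points with large differences, such as Klf2 and Ms4a4c, lie far below 0 on the Th17 axis and near 0 on the Th1 axis.

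Most of the 347 genes differed in Th17 cells alone. In 209 of them (60.2%) the Th17 ratio was at least 2-fold and the Th1 ratio was not, 93 with a higher and 116 with a lower signal in CD30high Th17 cells. Only 8 genes (2.31%) showed the converse. In 16 genes (4.61%) both ratios were at least 2-fold in the same direction, and in another 16 (4.61%) both were at least 1.5-fold in opposite directions. The remaining 98 genes (28.2%) reached 2-fold in neither lineage and passed the rule because smaller ratios pointed apart, 39 with the Th17 ratio above and 59 with it below the Th1 ratio.

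The CD30high Th17 array stood at the end of the range for most of these genes. Among the 145 higher genes it was the brightest array for 105 (72.4%), against 32.7% of all members, and the CD30low Th17 array was the dimmest for 87 (60.0%), against 21.3%. Among the 202 lower genes the CD30high Th17 array was the dimmest for 159 (78.7%), against 29.1%, and the CD30low Th17 array the brightest for 91 (45.0%), against 23.0%. The median signals of the lower genes were 1000.3 and 1026 in Th1 and 1066 and 413 in Th17 cells. Those of the higher genes were 760.2 and 742 in Th1 and 565 and 1447 in Th17 cells. In both sets the Th1 arrays lay close together and the Th17 arrays apart. The rule itself puts the Th17 arrays toward the ends of the range, so these shares are a description.

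Ms4a4c had the largest lineage difference of all. It encodes a membrane protein of the MS4A family, which spans the membrane several times and resembles the B cell antigen CD20. Its signals were 1309 and 1289 in Th1 and 2149 and 113 in Th17 cells, which gave a lineage difference of -4.23 (18.7-fold). The Th1 arrays and the CD30low Th17 array were all bright and CD30high Th17 cells alone were near the floor. Its neighbour on chromosome 19, Ms4a4b, had 39317 and 33805 in Th1 and 28245 and 1923 in Th17 cells (-3.66). Second probe sets gave -4.05 and -2.18. The probe sets of Ms4a4c are of types that can share sequence with related genes, so its signal and that of a paralog may not be fully separate. Of the 4 MS4A members measured, these 2 passed the rule as lower, against 2.83% of all members, and Ms4a6b (-0.27) and Ms4a6c (0.27) did not.

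Krüppel-like factors followed. Klf2, a transcription factor that keeps T cells quiescent and able to leave lymphoid organs, had 3619.9 and 2608 in Th1 and 3259.7 and 143 in Th17 cells (-4.04, 16.5-fold). Klf3, a related factor, had 3114 and 1782 in Th1 and 1555 and 52.1 in Th17 cells (at most -3.15, at least 8.90-fold). Both were thus expressed in 3 of the 4 groups and low in CD30high Th17 cells. The second probe set of Klf3 gave -1.60, while 4 dimmer ones, at a maximum of 475 on any array, lay between -0.44 and 0.17. The promoters of the 2 genes with the most negative values are shown because each gene was low in 1 of the 4 groups alone and because Klf2 itself belongs to the factors that bind CACCC. The sequences run from 250 bases before to 50 bases after the annotated start (RefSeq, GRCm38.p6, plus strand), with CACCC or its complement GGGTG in capitals. Each held the motif once, as did 62.0% of the 158 lower genes with a promoter at hand, against 60.8% of 5873 members and 56.7% of 27025 genes.
Ms4a4c, chr19:11407411-11407710: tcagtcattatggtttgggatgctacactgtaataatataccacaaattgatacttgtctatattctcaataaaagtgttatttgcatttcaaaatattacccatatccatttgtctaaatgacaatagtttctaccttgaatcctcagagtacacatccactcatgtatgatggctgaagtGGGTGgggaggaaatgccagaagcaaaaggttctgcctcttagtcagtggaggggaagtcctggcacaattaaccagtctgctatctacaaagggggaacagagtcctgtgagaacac
Klf2, chr8:72318812-72319111: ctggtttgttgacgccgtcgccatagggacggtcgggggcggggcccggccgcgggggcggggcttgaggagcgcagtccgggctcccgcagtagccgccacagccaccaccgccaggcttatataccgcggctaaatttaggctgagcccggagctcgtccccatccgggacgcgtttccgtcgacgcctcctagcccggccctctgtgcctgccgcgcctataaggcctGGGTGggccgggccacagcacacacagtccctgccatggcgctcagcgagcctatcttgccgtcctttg

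The list of naive, memory and recirculation genes, which holds Klf2 and Klf3, was lower in part. Of the 13 members measured, 4 passed the rule as lower, against 2.83% of all members, and 0 as higher, with a median of -0.48. The median Th1 ratio was -0.35 and the median Th17 ratio -0.77, and 12 of 13 ratios were below 0 in Th1 against 11 of 13 in Th17 cells. Cd27, a costimulatory receptor of the TNF receptor superfamily, had 2063 and 1067 in Th1 and 1649 and 217 in Th17 cells (-1.97). Foxp1, a forkhead factor of quiescent T cells, had 2615 and 1484 in Th1 and 2470.2 and 363 in Th17 cells (-1.95), and 6 of its 7 other probe sets lay between -1.99 and -1.05, with a dim one at 0.78. In both genes the signal was lower in CD30high cells of each lineage, and the Th17 ratio was the larger in size. Foxo1, the factor that drives Klf2 in resting T cells, was at -0.86, with -1.29 and -0.74 in other probe sets. Ccr7, the lymph node homing receptor, was at -0.48. S1pr1 (0.37), the receptor for exit from lymphoid organs, Il7r (0.14), the receptor for IL-7, and Lef1 (0.20) and Satb1 (0.34), which encode nuclear factors of naive cells, stayed near 0. The 8 GIMAP genes, GTPases of lymphocyte survival, had a median of -0.28 with none past the rule.

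Genes induced by interferon held the largest count of lower members of any list. Of 14 measured, 8 passed the rule as lower, where the share over all members was 2.83%, and 0 as higher. The median lineage difference was -1.12, from median ratios of -0.40 in Th1 and -1.89 in Th17 cells. Ifi27l2a, a mitochondrial protein strongly induced by interferon, had 12309 and 9281 in Th1 and 15939.9 and 2582 in Th17 cells (-2.22). Xaf1, which opposes an inhibitor of apoptosis, had 2236 and 1699 in Th1 and 2467 and 442 in Th17 cells (-2.09). Zbp1, a sensor of Z-form nucleic acids, had 1585 and 1228 in Th1 and 1804 and 475 in Th17 cells (-1.56). In these 3 genes the CD30low Th17 array was the brightest of the 4 and the CD30high Th17 array the dimmest. Ifi209, an HIN-200 protein, had 7988 and 6379 in Th1 and 1564 and 115 in Th17 cells (-3.45), and a dimmer probe set gave -0.14. Isg20, an exonuclease that degrades RNA, had ratios of opposite direction, with 1297 and 2007 in Th1 and 2064 and 569 in Th17 cells (-2.49). Slfn1 (-1.51), Ifit2 (-1.15) and Rtp4 (at most -1.08) completed the 8. Rtp4 was at -0.74 with a floor of 200 and at -0.91 with quantile normalization. Parp14 (0.03), Bst2 (-0.38) and Trim30a (-0.61) did not pass.

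The GTPases that IFN-γ induces did not follow this list as a group. Of 8 measured, Iigp1 alone passed, with 2682 and 1604 in Th1 and 1065 and 136 in Th17 cells (-2.23, second probe set -2.14). Gbp2 (-0.01), Gbp3 (-0.19), Gbp6 (0.53), Gbp7 (-0.19), Igtp (-0.04), Irgm1 (-0.59) and Irgm2 (-0.51) stayed under 2-fold, and the median of the list was -0.19. Anti-IFN-γ antibody was present in Th17 cultures only. Within the HIN-200 genes of chromosome 1, the direction was mixed. Ifi209 and its neighbour Mndal, with 18033 and 11879.8 in Th1 and 3654 and 614 in Th17 cells (-1.97), were lower. Ifi202b, of the same family, had 7915 and 7981 in Th1 and 259 and 1361 in Th17 cells (2.38), the opposite direction. The probe sets of Mndal and Ifi202b can share sequence with relatives, so these values are uncertain.

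Cytotoxic genes were the next group. Of 10 measured, 4 passed as lower, against 2.83% of all members, and 0 as higher, with a median of -0.76 (Th1 median ratio -0.37, Th17 -1.39). Gzmb, a granule protease that triggers apoptosis of target cells, had 49398 and 43328 in Th1 and 28882 and 5155 in Th17 cells (-2.30). Its neighbour Gzmc had 691 and 547 in Th1 and 417 and 37.9 in Th17 cells (at most -1.72, and -0.72 with a floor of 200). Gzma, a related protease, had 7385 and 8346 in Th1 and 2698 and 874 in Th17 cells (-1.80). Nkg7, a protein of cytotoxic granules, had 3586 and 2695 in Th1 and 336 and 109 in Th17 cells (-1.21, and -0.34 with that floor). The Th1 arrays were the brighter pair for all 4 genes, and CD30high Th17 cells were the dimmest group for each. Srgn, the proteoglycan that holds granzymes, did not differ beyond 0.21. Of 4 natural killer and CD8 T cell markers named here, Cd8b1 alone reached 300 on any array, and Ncr1, a defining receptor of natural killer cells, was below 100 on all.

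Genes linked to regulatory T cells gave 3 lower and 1 higher of 9 measured, against 2.83% and 2.03% of all members, with a median of -0.71. Nrp1, a semaphorin co-receptor, had 1456 and 1101 in Th1 and 946 and 203 in Th17 cells (-1.82), and 3 other probe sets lay between -1.91 and -1.0005. Izumo1r, which encodes folate receptor 4, had 381 and 259 in Th1 and 2088 and 423 in Th17 cells (-1.74). Ikzf2, the factor Helios, had 681 and 723 in Th1 and 976 and 425 in Th17 cells (-1.29, and -0.71 with all probe sets averaged). Izumo1r and Ikzf2 were brightest in CD30low Th17 cells and Nrp1 in CD30low Th1 cells, while Nrp1 and Ikzf2 were dimmest in CD30high Th17 and Izumo1r in CD30high Th1 cells. The higher member was Ctla4, an inhibitory receptor, with 10220.4 and 11022 in Th1 and 3523 and 8241 in Th17 cells (1.12). Il2ra, the IL-2 receptor alpha chain, was at 0.60. Among checkpoint and CD28 family genes, 2 of 6 were higher and 1 lower (median 0.47). Btla, an inhibitory receptor, had 2826 and 1578 in Th1 and 3835 and 5419 in Th17 cells (1.34), reaching 2-fold in neither lineage. Cd96, a receptor for nectins, had 3593 and 2137 in Th1 and 741 and 104 in Th17 cells (-2.09).

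Surface and signalling genes without a shared list made up much of the rest of the 15 lowest values. Myo6, an unconventional myosin that moves toward the minus end of actin, was lower in CD30high cells of both lineages, with 1782 and 520.4 in Th1 and 10494 and 273 in Th17 cells (-3.49). Its other probe sets gave -2.92 and -2.08. Itih5, a protein that binds hyaluronan, had 5494 and 2681 in Th1 and 2017 and 154 in Th17 cells (-2.67, other probe sets -2.27 and -1.61). These 2 genes had both ratios past 2-fold, and the lineages differed in degree. Tmem158, a membrane protein induced by Ras, had 581 and 505 in Th1 and 1484 and 138 in Th17 cells (-3.23), and Nrn1, a GPI-anchored protein known from neurons, had 1072 and 974 in Th1 and 7513 and 1387 in Th17 cells (-2.30). Ipcef1, a partner of cytohesin exchange factors, had 4931 and 2680.4 in Th1 and 1390.0 and 102 in Th17 cells (-2.89). Trgv4, a variable segment of the T cell receptor gamma chain, had 467 and 450.0 in Th1 and 1051 and 165 in Th17 cells (-2.62). For Tmem158, Nrn1 and Trgv4 the Th1 arrays were close to each other. The probes of Trgv4 can share sequence with related segments.

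Among genes with the same direction in both lineages, the larger ratio was in Th17 cells for all 16. The rule nearly fixes this, because it asks for 2-fold in each lineage and a further 2-fold between them. Th1 log2 ratios over all members lay only between -1.99 and 2.05, so the count is a description. The lower ones besides Myo6 and Itih5 included Txk, a Tec family kinase of Th1 cells, with 1368 and 508 in Th1 and 1263 and 139 in Th17 cells (-1.76). Itgb3, the integrin beta 3 chain, had 1049 and 438 in Th1 and 958 and 39.5 in Th17 cells (at most -1.9997, and -0.9997 with a floor of 200). Gata3, the lineage factor of Th2 cells, had 1176 and 484 in Th1 and 1333 and 211 in Th17 cells (-1.38). For these 3 the CD30low arrays of both lineages lay close together, and the CD30high arrays lay lower and apart. Timp2 (-1.56), an inhibitor of metalloproteinases, rested on its brightest probe set, since others gave 0.14 and 1.001, and it was -0.86 with a floor of 200. The higher ones were Procr, Mycn, Myb, Ermn (1.23), Rapgef5 and Selenbp1 (1.14).

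**Figure D2:**
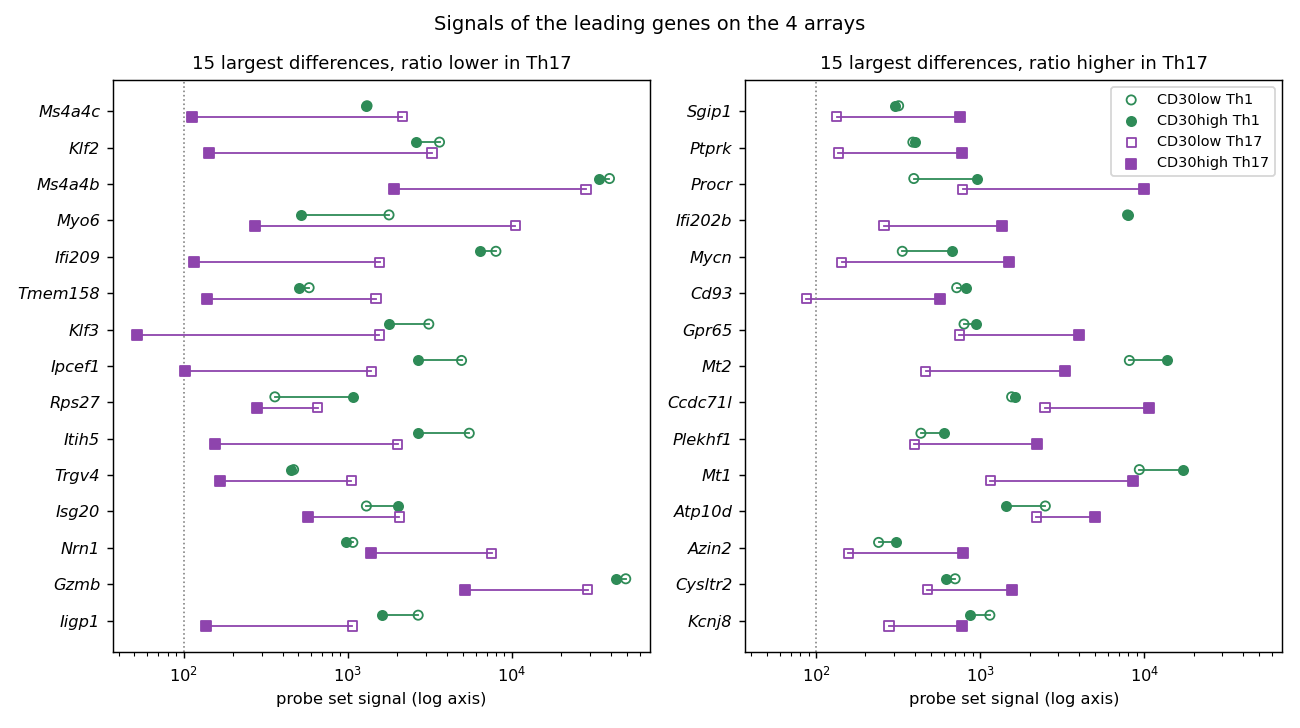
Probe set signals (x axis, log scale) of the 15 genes with the most negative (left) and the 15 with the most positive (right) lineage difference, 1 array per point. Open symbols are CD30low and filled symbols CD30high cells, green Th1 and purple Th17, and the dotted line marks the floor of 100. In the left panel the filled purple symbol lies far below the others for most genes, as for Klf2 at 143. The green pair is close together for some genes, such as Ms4a4c, and apart for others, such as Myo6 and Itih5.

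Sgip1 headed the genes with a higher ratio in Th17 cells. It encodes an endocytic adaptor that bends membranes and had 318 and 302 in Th1 and 134 and 756 in Th17 cells (2.58, 5.96-fold), with other probe sets at 2.31, 1.99 and -0.08. Ptprk, a receptor tyrosine phosphatase of cell contacts, had 389 and 400.1 in Th1 and 136 and 780.3 in Th17 cells (2.47). Both had a flat, intermediate signal in Th1 cells, between those of the Th17 arrays. Sgip1 stood in a run of 3 neighbouring members on chromosome 4 that all passed the rule, with Pde4b (1.11) and Tctex1d1 (1.799). The promoters of the 2 genes are shown as those with the most positive values. They cover the same window, build and strand as above, with CACCC or GGGTG and the ROR core site AGGTCA or its complement TGACCT in capitals. Each held CACCC once, and Sgip1 held the ROR core site once, at its first base. Of the 124 higher genes with a promoter, 69.4% held CACCC and 16.9% AGGTCA, against 60.8% and 11.8% of members and 56.7% and 16.0% of all 27025 genes.
Sgip1, chr4:102759885-102760184: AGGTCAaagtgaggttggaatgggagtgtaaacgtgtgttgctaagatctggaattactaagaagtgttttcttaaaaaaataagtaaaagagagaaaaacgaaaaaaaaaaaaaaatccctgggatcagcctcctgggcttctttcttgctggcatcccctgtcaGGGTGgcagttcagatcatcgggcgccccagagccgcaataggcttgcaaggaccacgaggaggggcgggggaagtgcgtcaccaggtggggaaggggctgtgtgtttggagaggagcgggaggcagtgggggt
Ptprk, chr10:28074570-28074869: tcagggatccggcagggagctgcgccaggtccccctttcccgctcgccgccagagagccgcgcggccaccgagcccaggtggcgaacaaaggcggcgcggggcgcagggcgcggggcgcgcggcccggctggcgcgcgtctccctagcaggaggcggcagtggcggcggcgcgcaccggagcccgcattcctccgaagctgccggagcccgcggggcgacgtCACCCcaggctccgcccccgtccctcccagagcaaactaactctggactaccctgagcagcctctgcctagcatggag

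Neither of 2 further motifs, the AP-1 site TGANTCA and the forkhead site GTAAACA, was found in these 4 windows on either strand. The forkhead site was held by 9 of the 124 higher promoters (7.26%) and 8 of the 158 lower ones (5.06%), against 2.59% of members and 3.55% of all genes. The AP-1 site was held by 6.45% of higher and 8.23% of lower promoters, against 4.24% of members and 7.93% of all genes. These are counts of letters in a fixed window, and binding was not measured.

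Procr and Mycn had ratios of at least 2-fold in both lineages, the larger in Th17 cells. Procr, the endothelial protein C receptor, had 394 and 951 in Th1 and 784 and 9902 in Th17 cells (2.39). Mycn, a factor of the MYC family, had 335 and 674 in Th1 and 143 and 1490.1 in Th17 cells (2.37), and a dim second probe set gave -0.51. Myb, a factor of progenitor and memory cells, had 1536 and 3696 in Th1 and 1269 and 8923 in Th17 cells (1.55). Other probe sets of Myb gave 1.41 and 0.42. The MYB and MYC families gave 2 higher genes, Mycn and Myb, and 1 lower, Mxd3 (-1.14, and -0.98 with all probe sets averaged), an antagonist of MYC, of 10 measured (median 0.10). Over all members the shares were 2.03% higher and 2.83% lower.

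Metallothioneins and zinc transporters gave 4 higher and 1 lower of 13 measured (median 0.31), against 2.03% and 2.83% of all members. Of the 13 lineage differences 11 were above 0, against 52.2% over all members. Mt1 and Mt2, neighbouring genes of small proteins that bind zinc, were bright in Th1 cells already. Mt2 had 8118 and 13734 in Th1 and 466 and 3292 in Th17 cells (2.06). Mt1 had 9336 and 17351 in Th1 and 1150.0 and 8508 in Th17 cells (1.99, or 0.996 with all probe sets averaged). In both genes every Th1 array lay above both Th17 arrays, and the Th17 pair was the further apart. The zinc importers Slc39a6, with 5146 and 5279.6 in Th1 and 4477 and 11743 in Th17 cells (1.35), and Slc39a8, with 1871 and 1946 in Th1 and 1623 and 3467 in Th17 cells (1.04), were flat in Th1 cells. Slc39a8 was at 0.83 with all probe sets averaged and at 0.99 with quantile normalization. Slc39a14, another importer, was at 0.94. Slc30a4, a transporter that moves zinc out of the cytosol, had 4036 and 2835 in Th1 and 4985 and 1385 in Th17 cells (-1.34), the opposite direction.

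Regulators of cyclic AMP and of G proteins gave 5 higher and 1 lower of 14 measured, against 2.03% and 2.83% of all members. Crem, a repressor that cyclic AMP induces, had 2978 and 2640.3 in Th1 and 3036 and 9320.3 in Th17 cells (1.79), with 1.36 in a second probe set and 0.79 with all probe sets averaged. Pde4b, a phosphodiesterase that degrades cyclic AMP, had 3517 and 2771 in Th1 and 1797 and 3056 in Th17 cells (1.11, other probe sets 1.61 and 1.46, and 0.70 with all averaged). Rapgef5 (1.15), an exchange factor for Rap1, and Rgs2 (1.00), which shortens G protein signals, were also higher, and Rgs14 (-1.09) was lower. Pde2a (1.44), a further phosphodiesterase, was the single gene with a lower signal in CD30high Th1 cells alone, 5044 and 1611 in Th1 and 565 and 489 in Th17 cells. Its other probe sets gave 1.01 and 0.06. Gpr65, a proton-sensing receptor that raises cyclic AMP, had 797 and 939 in Th1 and 745 and 4025 in Th17 cells (2.20). The median of the list was 0.25, and with all probe sets averaged it was -0.24.

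Of the Th17 program, 2 of 7 measured genes were higher, against 2.03% of all members, and 0 lower (median 0.10). Rora had 963 and 1159 in Th1 and 951 and 2482 in Th17 cells (1.12), and its 5 other probe sets lay between 0.73 and 1.17. Irf4, a factor required for Th17 cells, had 1433 and 1794 in Th1 and 2929 and 7634 in Th17 cells (1.06), with 0.35 in a dim second probe set. With all probe sets averaged both were under 2-fold, Rora at 0.65 and Irf4 at 0.70. Stat3 (-0.02), Hif1a (0.02) and Maf (0.10) were near 0. Of 6 genes of the Th1 program, Txk alone passed and the median was -0.32. Among cytokines, 2 were higher and 1 lower of 8 measured, against 2.03% and 2.83% of all members. Csf1, which acts on macrophages, had 3016 and 2733 in Th1 and 214 and 616 in Th17 cells (1.67, other probe sets between -0.51 and 0.52), and Ebi3, a subunit of IL-27 and IL-35, had 1745 and 1966 in Th1 and 499.5 and 1507 in Th17 cells (1.42). In each of the 2 the CD30low Th17 array was the dimmest of the 4.

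Further genes with a higher ratio in Th17 cells belonged to several lists. The shares to set beside their counts were 2.03% higher and 2.83% lower over all members. Tec, a kinase downstream of the T cell receptor, had 719.9 and 574 in Th1 and 449.9 and 1173 in Th17 cells (1.71), and Trat1 (1.01), an adaptor of that receptor, was also higher, while Txk and Ubash3a (-1.04), a negative regulator, were lower among 22 genes of the pathway. With all probe sets averaged Trat1 was at 0.66 and Ubash3a at -0.47. Myo1f, a myosin of leukocytes, had 3340.3 and 2799.9 in Th1 and 672 and 1595 in Th17 cells (1.502, other probe sets 1.77 and 1.70). Myo10, a myosin of filopodia, was at 1.14. Neither followed Myo6. Tnfaip3 (1.13), which ends NF-κB signals, and Nfkbie (1.05), an inhibitor of NF-κB, were higher among 13 genes of that pathway, with 0 lower. Nfkbiz had the lowest value of the 13 at -0.79, and its second probe set gave -1.92. Nfkbie reached 2-fold in neither lineage, and with all probe sets averaged Tnfaip3 was at 0.51 and Nfkbie at 0.89. Ccr2 (1.09, and 0.70 with all probe sets averaged), a chemokine receptor, Icam1 (1.08), an adhesion molecule, and St8sia4 (1.39), a sialyltransferase, each passed as well. Cd93, a C-type lectin receptor, had 719 and 822 in Th1 and 87.1 and 566 in Th17 cells (at least 2.31), with 2.03 and -0.21 in other probe sets. Plekhf1 (2.01), a phosphoinositide-binding protein, Ccdc71l (2.05), Azin2 (1.97), a regulator of polyamines, Cysltr2 (1.90), a receptor for cysteinyl leukotrienes, and Kcnj8 (1.89), a potassium channel, completed the 15 highest values with Atp10d.

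**Figure D3:**
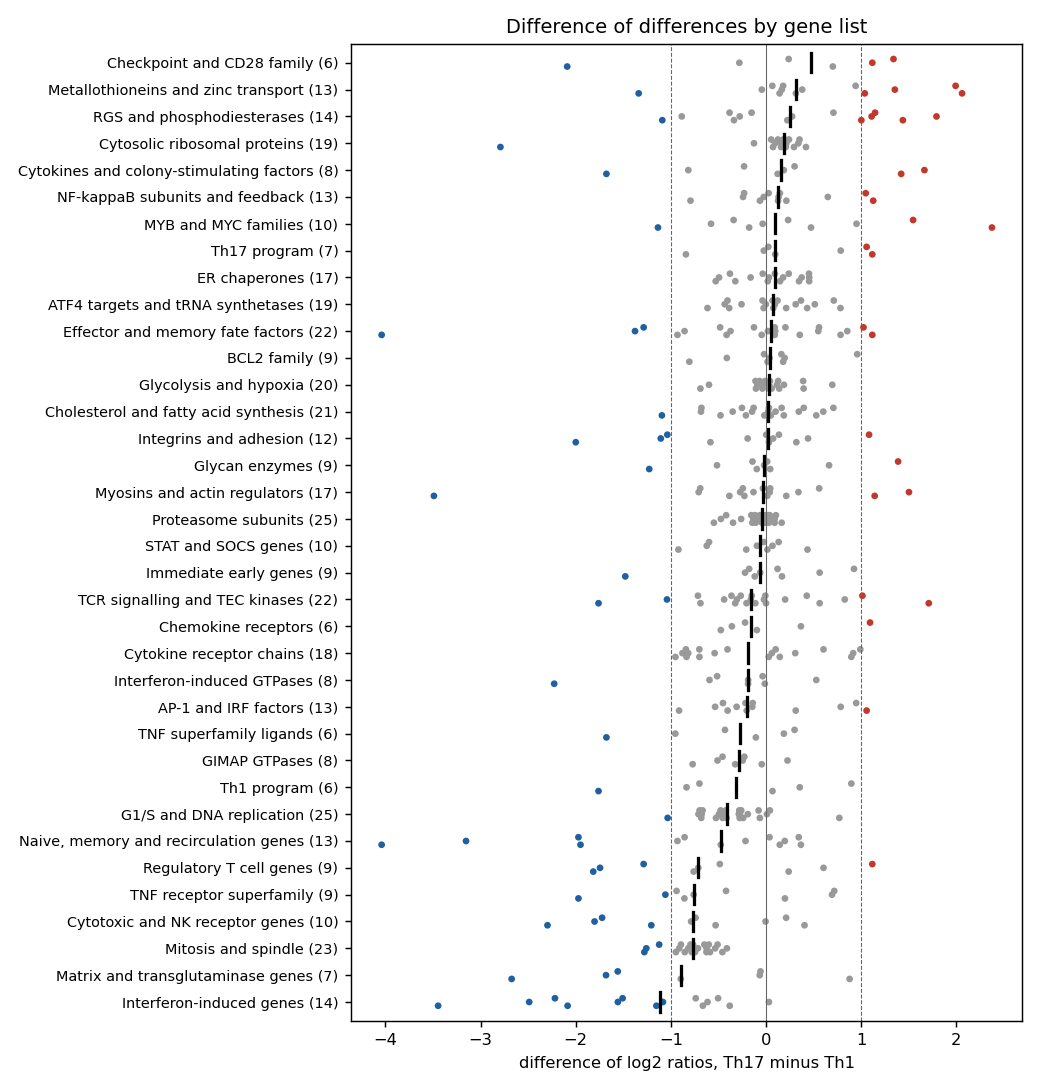
Lineage difference (x axis, log2 scale) of the members of each gene list with at least 6 measured genes (y axis, number measured in brackets), 1 array per group. Points are genes, red at 1 or more, blue at -1 or less and grey between, and black bars are list medians. Medians run from -1.12 for interferon-induced genes to 0.47 for the checkpoint and CD28 family, and the mitosis genes lie in a tight group to the left of 0.

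The mitosis and spindle genes showed a small difference of one direction. All 23 mitosis and spindle genes measured had a ratio above 0 in Th1 cells and a ratio below 0 in Th17 cells. Their median Th1 ratio was 0.38 and their median Th17 ratio -0.38. The median lineage difference was -0.77, with single genes between -1.28 and -0.41. None reached 2-fold in either lineage, and 3 passed the rule on the lineage difference, all as lower, against 2.83% of all members. Ttk, a kinase of the spindle checkpoint, had 760.2 and 1250.1 in Th1 and 1735 and 1176 in Th17 cells (-1.28, and -0.72 with all probe sets averaged). Kif11, the motor that separates spindle poles, had 1573 and 2118 in Th1 and 2607 and 1467 in Th17 cells (-1.26). Ccna2, cyclin A2, had 3925 and 5289.5 in Th1 and 7074 and 4377 in Th17 cells (-1.12). For Ttk, Kif11 and Ccna2 the CD30low Th17 array was the brightest and the CD30high Th1 array came second. Mki67, the proliferation antigen Ki-67, had 10957 and 13238 in Th1 and 14232 and 10973 in Th17 cells (-0.65). Over all 7137 members, 46.2% of Th1 ratios and 50.4% of Th17 ratios were above 0. The median kept its sign under each of the 7 other settings tried, between -0.80 and -0.72.

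Genes of the G1/S step and of DNA replication differed in the same direction but less. All 25 had a ratio above 0 in Th1 cells (median 0.30), where 9 were above and 16 below 0 in Th17 cells (median -0.10). The median lineage difference was -0.41, and Pole, the catalytic subunit of DNA polymerase epsilon, alone passed the rule (-1.03). Mcm6, a subunit of the replicative helicase, was at -0.68, Pcna, the sliding clamp, at -0.28, and Ccnd2, cyclin D2, at 0.01. Rfc3, a clamp loader subunit, went the other way, with 782 and 1498 in Th1 and 2034 and 6644 in Th17 cells (0.77). Signals are relative within an array, and a share of cells in cycle and a level per cell cannot be told apart in bulk RNA.

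**Figure D4:**
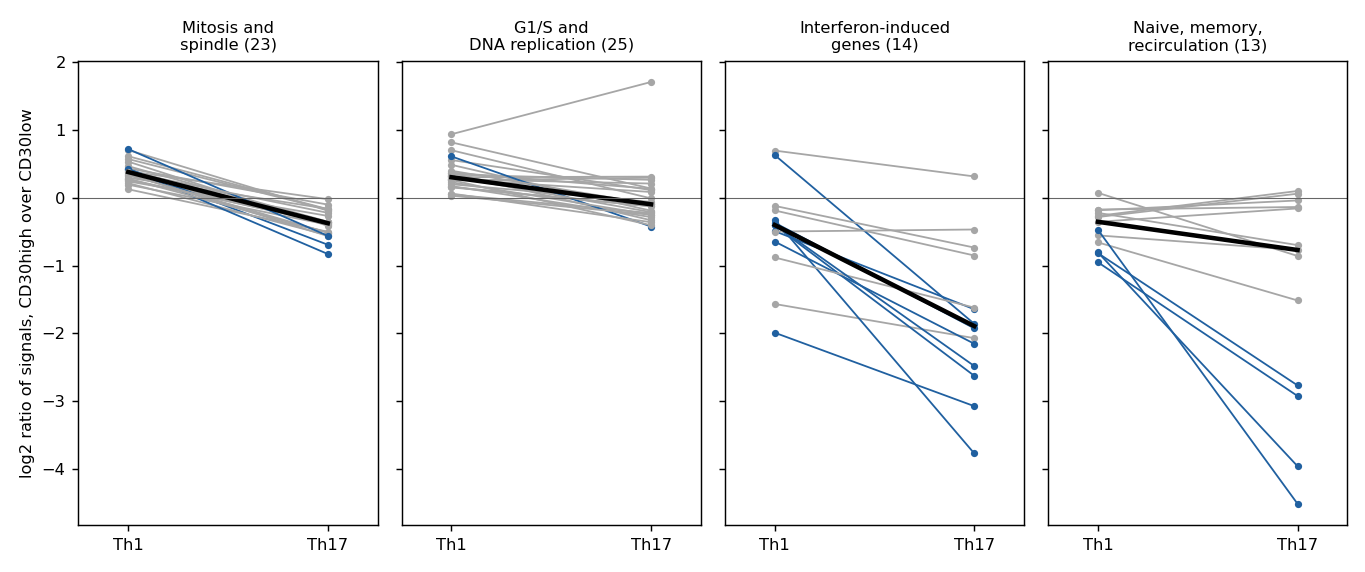
Log2 ratio of signals, CD30high over CD30low (y axis), in Th1 and Th17 cells for the measured members of 4 gene lists, 1 array per group. Each thin line joins the ratios of 1 gene, blue where it was at least 2-fold lower in Th17 cells, and the thick black line joins the list medians. All 23 mitosis genes cross from above 0 to below 0, while interferon-induced genes and the naive and memory list start below 0 in Th1 cells on the median and lie further below it in Th17 cells.

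In 16 genes the ratios pointed in opposite directions at 1.5-fold or more in each lineage. Rps27, a protein of the small ribosomal subunit, had 359 and 1067 in Th1 and 653 and 281 in Th17 cells (-2.79). It has 1 probe set here, the dimmest of the list on 3 of the 4 arrays, and 17 of the 19 ribosomal genes measured lay between 0.05 and 0.42. Sgo1 (-1.48), which protects cohesion at centromeres, E2f8 (-1.47, and -0.73 with all probe sets averaged), a repressor of E2F targets, Tiam1 (-1.47), an exchange factor for Rac, and Map7 (-1.60), which binds microtubules, were among the 10 genes higher in CD30high Th1 and lower in CD30high Th17 cells. Sgo1 had 1129 and 1863 in Th1 and 2088 and 1234 in Th17 cells, and a second probe set gave -0.92. Atp10d, a lipid flippase, led the 6 with the converse, with 2496 and 1443 in Th1 and 2201 and 5043 in Th17 cells (1.99). Gpat3 (1.59), an enzyme of triglyceride synthesis, Smad5 (1.49), a mediator of BMP signals, and Pik3ap1 (1.48), an adaptor for PI3 kinase, were others. For Pigt (1.51) other probe sets gave 0.22 and 0.02. A second probe set at the limit was at hand for 5 of the 16 genes, and all 5 had the same direction.

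Few genes differed in Th1 cells alone. Tnf, the cytokine, had 121 and 328 in Th1 and 925 and 784 in Th17 cells (-1.68). The difference arose between signals below that of either Th17 array, and it was -0.95 with a floor of 200. Kif18a, a mitotic kinesin, had 322 and 676 in Th1 and 592 and 408 in Th17 cells (-1.61), and Inpp5d, the lipid phosphatase SHIP-1, had 558 and 1131 in Th1 and 1024 and 806 in Th17 cells (-1.37). Med18 (-1.57), a subunit of Mediator, Iqgap3 (-1.54), a scaffold of dividing cells, Jpt1 (-1.54) and Perp (at most -1.31), a desmosomal protein, were the others. Jpt1 had 2762 and 9736 in Th1 and 4759 and 5765 in Th17 cells, but its other probe sets gave 0.13 and -0.21. It was the only 1 of the 7 with a second probe set at the limit. With a floor of 200 there were 4 genes of this kind in place of 7.

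The TNF receptor superfamily, to which CD30 belongs, had 9 measured members, 2 lower, against 2.83% of all members, and 0 higher, with a median of -0.76. Besides Cd27, Tnfrsf13b, a receptor for BAFF and APRIL, passed with 1702 and 1880.4 in Th1 and 1779 and 944 in Th17 cells (-1.06). Tnfrsf9, which encodes the costimulatory receptor 4-1BB, came close with 862 and 2182 in Th1 and 1142 and 1507 in Th17 cells (-0.94). Tnfrsf4 (-0.86) and Tnfrsf18 (-0.76), the receptors OX40 and GITR, were also below 0, and Tnfrsf25 (0.72) and Tnfrsf1a (0.69) above it.

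The 10 genes that the study followed by qRT-PCR were picked on these arrays for a difference in both lineages, and all 10 had ratios of at least 2-fold in the same direction in each. Their lineage differences are a description. Tgm2, the transglutaminase that the study centres on, had 420.4 and 1635 in Th1 and 11421 and 23867 in Th17 cells (-0.90), so its ratio was larger in Th1 cells. Its other probe sets gave values from -0.86 to 1.51. Myo6 (-3.49), Myb (1.55), Rapgef5 (1.15) and Rtp4 (at most -1.08) passed the rule, and Batf3 (0.95), Serpinf1 (0.88), Msc (at most 0.56), Il24 (0.12) and Calhm6 (at most -0.50) did not.

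Several lists held no gene past the rule in either direction, where the share over all members was 4.86%. They were glycolysis and hypoxia (20 measured, median 0.03), proteasome subunits (25, -0.04), ER chaperones (17, 0.09), ATF4 targets and tRNA synthetases (19, 0.08), cytokine receptor chains (18, -0.19), STAT and SOCS genes (10, -0.06) and the BCL2 family (9, 0.04). Cholesterol and fatty acid synthesis had 1 lower gene of 21, Dhcr7 (-1.09, and -0.98 with quantile normalization), the last enzyme of cholesterol synthesis, and a median of 0.02. Immediate early genes had 1 lower gene of 9, Dusp6 (-1.48), a phosphatase of ERK. Integrins and adhesion genes gave 1 higher and 3 lower of 12, with Cd9 (-1.11), a tetraspanin, and Itgb7 (-1.04), the gut homing integrin chain, beside Itgb3. Glycan enzymes gave 1 higher, St8sia4, and 1 lower, Chst11 (-1.23), of 9. Effector and memory fate factors gave 2 higher, Rora and Bcl6 (1.02), the factor of follicular helper cells, and 3 lower, Klf2, Gata3 and Ikzf2, of 22. Matrix genes gave 3 lower of 7, Itih5, Adam19 (-1.68), a metalloproteinase, and Timp2. For all these counts the shares over all members were 2.03% higher and 2.83% lower.

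Neighbouring genes passed the rule together in 11 pairs with both higher and 15 with both lower, of 7118 neighbouring pairs of members. The pairs included Ms4a4c and Ms4a4b, Gzmc and Gzmb, Ifi209 and Mndal, Mt2 and Mt1, and Cd84 and Slamf6 (-2.21), receptors of the SLAM family. In the first 4 of these the neighbours are related in sequence, so some of their probes may read both.

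The second probe set of a gene mostly repeated the direction of the first. Of 101 genes past the rule with a second probe set at the signal limit, 97 had the same direction in it, 81 at 1.5-fold or more and 57 at 2-fold or more. For genes lower in Th17 cells alone the direction was the same in 39 of 39 and for those higher in Th17 cells alone in 27 of 28. For genes that reached 2-fold in neither lineage it was 5 of 5 above and 14 of 16 below.

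**Figure D5:**
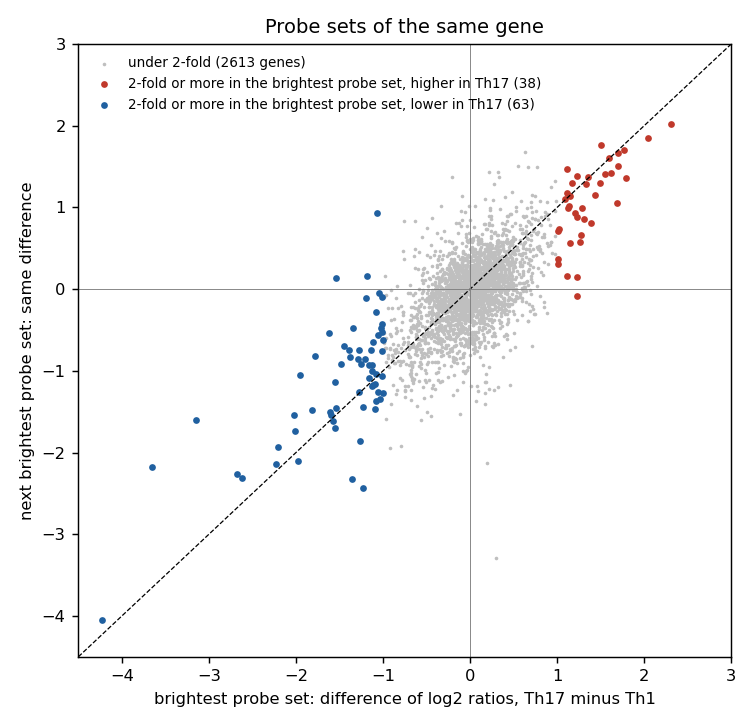
Lineage difference in the brightest probe set of a gene (x axis) and in its next brightest (y axis), both on the log2 scale, for the 2714 genes whose second probe set met the signal limit. Coloured points are the 101 genes past the 2-fold rule, red for 38 higher and blue for 63 lower, and the dashed line marks equal values. Of the coloured points 97 lie on the same side of 0 on both axes.

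Markers of other cell types also differed between the Th17 arrays. The summed signal of 17 neutrophil and myeloid markers was 997 and 1222 in Th1 and 10103 and 3256 in Th17 cells, with 9 of 17 at 100 or more in CD30low and 8 in CD30high Th17 cells, and 2 in each Th1 array. S100a8 gave 5192 and 1209.9 of it in Th17 cells, and other markers gave the rest. In CD30low Th17 cells 5 of the markers met the signal limit, against 2 in CD30high Th17 cells and 1 in each Th1 array. Mpo, a defining granule enzyme of neutrophils, was below 100 on every array. None of these markers was a member. The summed signal of 7 B cell markers was 5434 and 2849 in Th1 and 5115 and 3806 in Th17 cells, nearly all Ighm, with Cd79a and Pax5 below 100 throughout. MHC class II genes summed to 2571 and 2468 in Th1 and 1844 and 2759 in Th17 cells. The 8 fibroblast markers summed to 12758 and 13130 in Th1 and 13435 and 17200 in Th17 cells. This was mostly Thy1, which T cells express, and Lum, with 768 and 6697 in Th17 cells. In CD30high Th17 cells 3 of the 8 met the signal limit, against 2 in CD30low Th17 cells and 1 in each Th1 array. Dcn, which encodes the matrix protein decorin, had 127 and 967 in Th17 cells and was below 100 on both Th1 arrays. Mast cell and basophil markers summed to 552 and 483 in Th1 and 847 and 1032 in Th17 cells. All 6 dendritic cell markers were below 100 on every array. Their part in the lineage differences was not tested. The general T cell genes Cd3e (-0.11), Cd3g (-0.36) and Cd4 (-0.31) stayed under 2-fold.

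The rule also left genes out. Of 592 genes past 2-fold in Th17 cells at the signal limit, 411 were members, 165 were below 300 on both Th1 arrays and 16 were not autosomal. Of 100 such genes in Th1 cells, 73 were members and 26 were below 300 on both Th17 arrays. Il17a was 1 of the 165, as were Mylk, with 65.6 and 105 in Th1 and 79.1 and 1355 in Th17 cells, and Ccn3, with 198 and 226 in Th1 and 1785 and 142 in Th17 cells. For these a ratio in Th1 cells is either at the floor or close to it, so their lineage difference says little about Th1 cells.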

How the data were processed

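The authors deposited intensity values, 1 linear signal for each probe set of Affymetrix Mouse Genome arrays, made with Affymetrix software (GeneChip Operating Software in the methods, Affymetrix Expression Console in the submitters' notes). The summary algorithm and scaling target were not given in the sources used here. The table held 45037 probe sets without detection calls. Gene names were those of the platform table, brought up to date through RefSeq, and 932 probe sets with several symbols and 9160 without one were not named. The brightest probe set by mean signal stood for a gene. Ratios were taken after a floor of 100, with a signal limit of 300, and no test was made because 4 arrays in 4 groups leave no residual.

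The members and the 46 gene lists (801 entries, 726 named here) were chosen with earlier results of these data known. The text names the 15 highest and lowest values, the 6 largest per pattern, up to 5 called genes per list and the qRT-PCR genes. It also names lineage genes, some of the marker genes, and the genes just inside and outside the rule. Other genes, such as those given for contrast, were chosen after their values were seen. Promoters came from a RefSeq table (GRCm38.p6). Alternatives covered the floor, scaling, probe set choice, signal limit and fold. Counting was tested on simulated data. Python 3.11.15, numpy 2.4.6, pandas 2.3.3 and matplotlib 3.10.9 were used. The number of arrays limits the precision.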

Additional observations from a re-analysis of the deposited data

Results flagged for a closer look

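In 16 genes the CD30high over CD30low ratio was above 1 in one lineage and below 1 in the other, by at least 1.5-fold each. With 1 array in each group this difference was not tested. Lower in Th17 than in Th1 cells on the log2 scale were Rps27 (-2.79), Isg20 (-2.49), Map7 (-1.60), Sgo1 (-1.48), Tiam1 (-1.47), E2f8 (-1.47), Nqo2 (-1.44), Klhl20 (-1.44), Cdc25c (-1.20) and Terf1 (-1.20). Higher were Atp10d (1.99), Gpat3 (1.59), Pigt (1.51), Smad5 (1.49), Pik3ap1 (1.48) and Fam71b (1.42). Nqo2 encodes a quinone reductase, Cdc25c a phosphatase that starts mitosis, Terf1 a telomere-binding protein and Klhl20 an adaptor of a ubiquitin ligase.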

How the results depend on the processing

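With all probe sets of a gene averaged, 5643 genes met the limit and 81 were higher and 129 lower, of which 79 and 114 were among the genes counted above. With a fold rule of 3, 32 were higher and 51 lower. The latter follows from the stricter rule. For the former, a probe set below the floor on every array has no lineage difference and makes the average smaller in size. Mt1 went from 1.99 to 0.996 and E2f8 from -1.47 to -0.733. Jpt1, whose other probe sets were bright, went from -1.54 to -0.540. How much of the lower counts came from probe sets below the floor was not tested. Under the 6 other settings (floor of 50 or 200, median centring, quantile normalization, limit of 200 or 500) the counts were between 110 and 201 higher and between 145 and 241 lower. For the 102 named genes past the rule, the 675 values that could be had under other settings all had the same sign, and 647 were still at 2-fold or more. Another 39 values could not be had because the gene no longer met the signal limit, 22 of them with averaged probe sets, among these Klf3, Tmem158, Ipcef1, Sgip1, Ptprk, Mycn and Cd93. Some list medians changed sign, and the cause was not tested. With a limit of 200 the Th17 ratio was 0.10 for chemokine receptors and -0.71 for matrix genes. With a limit of 500 the lineage difference was 0.061 for cytokine receptor chains and 0.19 for TNF ligands, and the Th17 ratio of regulatory T cell genes was 0.20. With a floor of 200 the lineage difference of cytokine receptor chains was 0.045. With averaged probe sets it was -0.24 for regulators of cyclic AMP and G proteins, the Th17 ratio of cytokines was -0.12 and the Th1 ratio of regulatory T cell genes was -0.11. No paired analysis was possible because each group has 1 array. Genes near the floor have only a bound, and a difference in their true size cannot be seen.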

Other observations

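The genes named next were on none of the lists and were picked after their values were seen, so they stand as single values. Dgat1, the last enzyme of triglyceride synthesis, had 938 and 977 in Th1 and 521 and 1896 in Th17 cells (1.804). Mgll, which releases fatty acids from monoglycerides, had 870.4 and 891 in Th1 and 708 and 2348 in Th17 cells (1.70), and Acadl, a fatty acid dehydrogenase of mitochondria, had 14717 and 15404 in Th1 and 6543 and 15822 in Th17 cells (1.21). Acsbg1 (at most -1.28), which activates fatty acids, and Lpin2 (-1.02), a phosphatidate phosphatase, went the other way. Rasa3 (-2.02), which switches Ras and Rap1 off, Rasgrp2 (-1.54) and Rasgrp1 (-1.03), which switch them on, Inpp4b (-1.57), a lipid phosphatase, and Sgk1 (-1.91), a kinase downstream of PI3 kinase, were lower in CD30high Th17 cells alone. Among genes that reached 2-fold in neither lineage were Ect2 (-1.07) and Racgap1 (-1.01), which act in cytokinesis, Ndc80 (-1.05), of the kinetochore, and Smc4 (-1.06), of condensin.

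On chromosome X, left out of the comparison, 219 genes met the signal limits, 4 of them higher and 7 lower at 2-fold or more (5.02%), against 4.86% of autosomal genes. Hsd17b10, a mitochondrial dehydrogenase, had 2300.4 and 2742 in Th1 and 2434 and 7437 in Th17 cells (1.36), and Gpr174, a receptor of lymphocytes, had 1272 and 1481 in Th1 and 1345 and 472 in Th17 cells (-1.73).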
